A study of Sus scrofa with 4 samples.

Results

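Y RNA fragments were examined in small RNA libraries of pig vascular stem cells. The members were chosen by name, as every Rfam entry assigned to the family Y_RNA in the deposited counts, which gave 899 of 41706 Rfam entries and of 43236 features in all. The family itself was selected on the read counts of these same 4 libraries, so its summed levels and the ratios made from them are given as a description, with no test. Primary cells at passage 1 came from fat under the skin (SVSC) or from the longissimus dorsi, a muscle along the spine (IVSC), and the labels call both kinds adipose-derived. The 4 groups were SVSC MDI, SVSC, IVSC MDI and IVSC, with 1 library in each, and the stated question was how small RNAs differ in adipogenesis of these 2 cell types. MDI cells had been given 0.5 mM IBMX, which blocks phosphodiesterases, 0.25 µM of the glucocorticoid dexamethasone and 5 mg/l insulin. The first 2 agents were removed after 3 days, growth medium was restored at day 6, and culture went on for 3 or 4 days more. Which of these lengths belongs to SVSC MDI and which to IVSC MDI is not given. The SVSC and IVSC libraries came from undifferentiated cells, and media of all groups contained 20% serum. The sources used here do not say whether both cultures share an animal.

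Y RNAs are short transcripts of RNA polymerase III whose ends pair to form a stem around an internal loop. They bind the ring-shaped protein Ro60 and, at the tail of U residues, the protein La. In vertebrate cells they have been linked to the quality control of misfolded RNA and to the start of DNA replication. Fragments cut from the stem are common in small RNA libraries, in blood serum and in vesicles that cells release.

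Summed over all listed features, the read counts came to 5166494 in SVSC MDI, 25725723 in SVSC, 20739428 in IVSC MDI and 21590587 in IVSC. These sums are called all reads of a library here. They leave out reads on no listed feature, and a read on several features may enter them more than once. Fragments of 16 to 35 nt had been selected, so a read stands for a piece of a Y RNA and not for the whole transcript. The SVSC MDI library stood apart, being the smallest and having 38.5% of its reads on Ensembl non-coding transcripts, against 15.7% in SVSC, 14.0% in IVSC MDI and 19.3% in IVSC. A pair of transcripts with nearly equal counts held 36.5%, 11.8%, 9.80% and 14.5% of all reads in SVSC MDI, SVSC, IVSC MDI and IVSC. Reads on Rfam made up 6.16%, 8.49%, 8.47% and 9.99% in the same order, and 87.3% to 90.6% of these lay on miRNA families. Levels below are reads per 1000000 of all reads in a library (RPM). Other totals shift every ratio by a fixed amount, which for SVSC MDI over SVSC was between 0.45 and 0.88 on the log2 scale, for SVSC MDI over IVSC MDI between 0.44 and 0.49, for IVSC MDI over IVSC between -0.13 and 0.30, and for SVSC over IVSC between -0.13 and 0.24.

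A read that matched several Y RNA entries was taken as counted on each of them, and the counting rule itself was not checked. Uniquely matching reads are exact matches to a single entry, so inexact matches are left out. They were 16.1% of the Y RNA sum in SVSC MDI, 7.99% in SVSC, 6.87% in IVSC MDI and 6.60% in IVSC. Levels are therefore given on 3 measures: the sum over entries, the uniquely matching reads, and the fewest distinct reads, which is the entry with the most reads plus the unique reads of all other entries. The sum exceeded the fewest distinct reads 4.93-fold in SVSC MDI, 9.63-fold in SVSC, 10.8-fold in IVSC MDI and 10.8-fold in IVSC. Intervals are exact 95% Clopper-Pearson intervals, which for a ratio take the reads of the pair as given. They hold counting error and nothing else, because amplified reads carried no molecular identifier and are not separate molecules. On the sum they are too narrow if 1 read enters it several times. The fewest distinct reads are a lower limit on the reads of a library, so a ratio of 2 such values is neither a limit nor an estimate of the ratio of distinct reads, and its interval holds the counting error of the values used.

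Both MDI libraries held far more Y RNA reads than the undifferentiated library of the same culture. The sum was 1010 reads in SVSC MDI, 751 in SVSC, 5151 in IVSC MDI and 894 in IVSC. In RPM this was 195 (184 to 208) in SVSC MDI, 29.2 (27.1 to 31.4) in SVSC, 248 (242 to 255) in IVSC MDI and 41.4 (38.7 to 44.2) in IVSC. The MDI libraries lay close to each other and so did the undifferentiated ones, with a wide gap between the pairs. As a share of Rfam reads outside miRNA families, Y RNA made up 3.33% in SVSC MDI, 0.271% in SVSC, 3.12% in IVSC MDI and 0.421% in IVSC.

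The gap was also present on the measures that do not count a read repeatedly. The fewest distinct reads were 205 in SVSC MDI, 78 in SVSC, 475 in IVSC MDI and 83 in IVSC, or 39.7 (34.4 to 45.5), 3.03 (2.40 to 3.78), 22.9 (20.9 to 25.1) and 3.84 (3.06 to 4.77) RPM in that order. Uniquely matching reads were 163 in SVSC MDI, 60 in SVSC, 354 in IVSC MDI and 59 in IVSC, or 31.5, 2.33, 17.1 and 2.73 RPM. On both of these measures SVSC MDI stood highest, while on the sum IVSC MDI did.

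**Figure D1:**
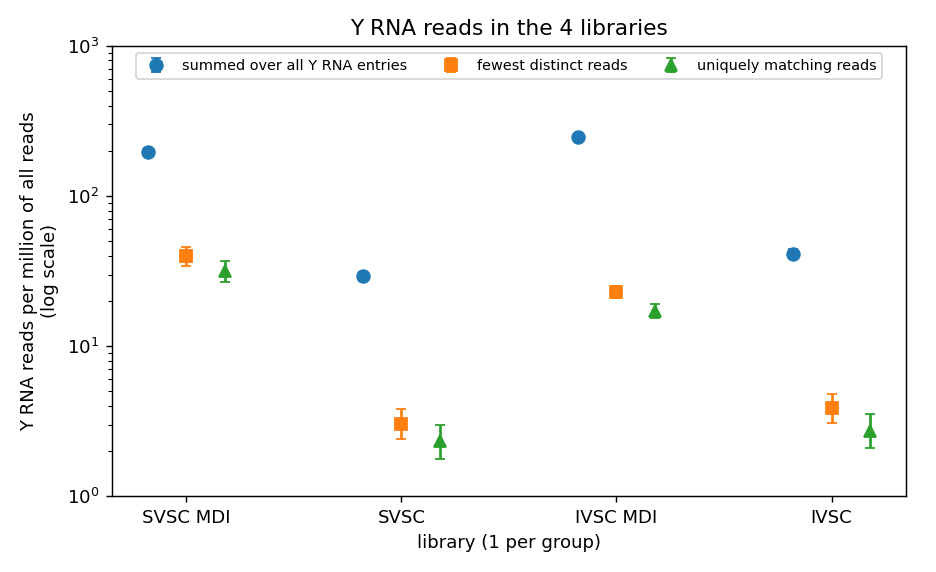
Y RNA level in RPM of all reads (log axis) in each of the 4 libraries, as the sum over entries (circles), the fewest distinct reads (squares) and the uniquely matching reads (triangles), with bars for the 95% counting interval where it is wider than the symbol. On all 3 measures the MDI libraries lie above both undifferentiated libraries, and SVSC MDI is below IVSC MDI on the sum (195 against 248) but above it on the distinct reads (39.7 against 22.9).

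In IVSC, the Y RNA sum was 6.00-fold higher with MDI (5.59 to 6.45). The fewest distinct reads gave 5.96-fold (4.71 to 7.62) and the unique reads 6.25-fold (4.73 to 8.37). All 3 measures thus gave nearly the same ratio in this culture. Here and below a feature is called higher or lower when its ratio is at least 2-fold and the interval excludes 1. Among 56 Rfam families at 10 RPM or more in IVSC MDI or IVSC, 23.2% were called higher and 21.4% lower, with a median ratio of 1.16, and Y RNA stood at place 4 from the top.

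In SVSC, the sum was 6.70-fold higher with MDI (6.09 to 7.37). The ratio was larger on the measures without repeated counting, at 13.1-fold for the fewest distinct reads (10.0 to 17.2) and 13.5-fold for the unique reads (10.0 to 18.5). Of 56 families at that level in SVSC MDI or SVSC, 16.1% were called higher and 33.9% lower, with a median ratio of 0.715, and Y RNA stood at place 3. The SVSC MDI library has the depth and Ensembl share given above, and their part in this ratio was not tested. Scaled to Rfam reads the ratio was 9.22, and scaled to hairpin reads 9.17.

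The size of the SVSC ratio against the IVSC ratio depended on the measure. The SVSC ratio over the IVSC ratio was 1.12 (0.992 to 1.26) on the sum, 2.20 (1.55 to 3.12) on the fewest distinct reads and 2.17 (1.45 to 3.25) on the unique reads. These 3 intervals are normal approximations on the log scale from read counts. With 1 library per group there is no replicate check, no p-value is given, and differences between animals or preparations are part of every ratio. The libraries are also of bulk cells, in which fewer cells of a type and less RNA per cell cannot be told apart.

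Between the 2 tissues of origin the differences were smaller than those with MDI. SVSC over IVSC was 0.705 (0.639 to 0.778) on the sum, 0.789 (0.571 to 1.09) on the fewest distinct reads and 0.853 (0.586 to 1.24) on the unique reads, none of them called. Of 50 families compared, 14% were called higher and 8% lower, and Y RNA stood at place 37 from the top. SVSC MDI over IVSC MDI was 0.787 (0.735 to 0.842) on the sum, but 1.73 (1.46 to 2.05) on the fewest distinct reads and 1.85 (1.53 to 2.23) on the unique reads. Its direction also turned with the total used, being 1.08 when scaled to Rfam reads and 1.10 when scaled to hairpin reads. Of 53 families compared, 7.55% were called higher and 32.1% lower, and Y RNA stood at place 24.

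The Y RNA reads were spread thinly over many entries. Of the 899 entries, 503 had a read in some library, 396 had none and 124 had a read in all 4. Entries with a read numbered 249 in SVSC MDI, 223 in SVSC, 377 in IVSC MDI and 205 in IVSC. Entries with 10 reads or more numbered 30 in SVSC MDI, 3 in SVSC, 131 in IVSC MDI and 13 in IVSC. When each library was drawn down to the 751 reads of the smallest sum, the expected number with a read was 222 in SVSC MDI, 223 in SVSC, 195 in IVSC MDI and 193 in IVSC. These 751 counts may not stand for equal numbers of distinct reads. The sum exceeded the fewest distinct reads 4.93-fold in SVSC MDI and 9.63-fold in SVSC.

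The length of an entry did not set apart those with reads. Entries were 58 to 173 bases long, with a median of 104 for those with a read and 102 for those with none. A read in 1 library only was seen for 254 entries, of which 43 were in SVSC MDI, 41 in SVSC, 142 in IVSC MDI and 28 in IVSC. Both MDI libraries and neither undifferentiated one had a read on 28 entries, and both undifferentiated libraries and neither MDI one on 3. These counts move with the number of Y RNA reads, which was larger in the MDI library of each culture.

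No entry dominated a library. The entry with the most reads held 4.36% of the Y RNA reads in SVSC MDI (3.18% to 5.80%), 2.40% in SVSC (1.43% to 3.76%), 2.52% in IVSC MDI (2.11% to 2.99%) and 2.68% in IVSC (1.73% to 3.97%). It took 36 entries in SVSC MDI, 51 in SVSC, 37 in IVSC MDI and 47 in IVSC to reach 50% of the reads. To reach 90% it took 152, 148, 142 and 127 entries in that order. Fewer entries thus made up 50% of the sum in the MDI libraries, while at 90% the MDI library of each culture took more. These numbers were not drawn down to equal reads.

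**Figure D2:**
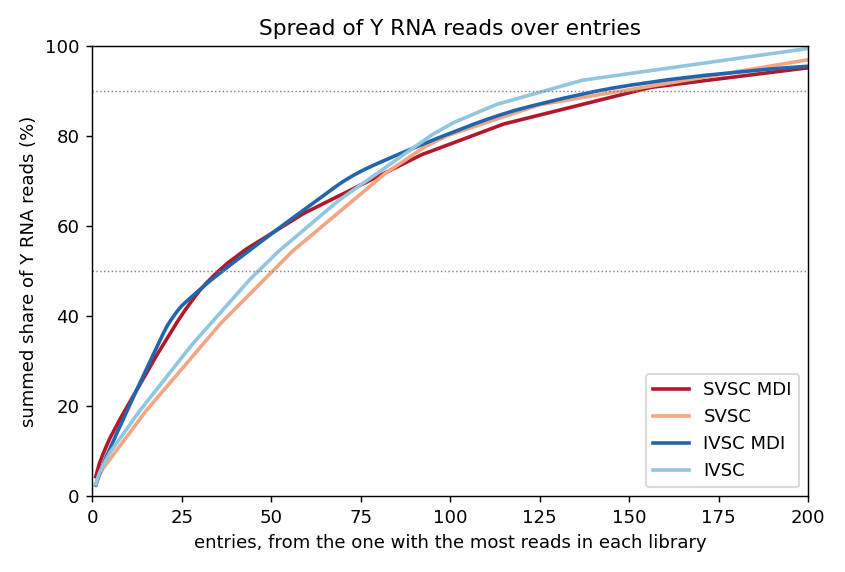
Summed share of the Y RNA reads of a library (%) against the number of entries, taken from the entry with the most reads in that library downwards, with dotted lines at 50% and 90%. The SVSC MDI and IVSC MDI curves reach 50% at 36 and 37 entries, before the SVSC and IVSC curves at 51 and 47.

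Entries are numbered by their place in reads summed over the 4 libraries. Entry 1, of 92 bases, had 18 reads in SVSC MDI, 17 in SVSC, 130 in IVSC MDI and 22 in IVSC. Entry 2, of 98 bases, had 14 reads in SVSC MDI, 18 in SVSC, 123 in IVSC MDI and 24 in IVSC. Both were higher with MDI in RPM, entry 1 by 5.27-fold in SVSC and 6.15-fold in IVSC, and entry 2 by 3.87-fold and 5.34-fold.

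Entries 3 to 20 formed a block with nearly equal counts. The 18 entries had 12 to 15 reads (median 14) in SVSC MDI, 4 to 8 (median 6.5) in SVSC, 86 to 103 (median 89) in IVSC MDI and 6 to 10 (median 9) in IVSC. Their uniquely matching reads came to 7 over the whole block in IVSC MDI and to 0 in each of the other libraries. Nearly all reads of the block were thus not exact matches to 1 entry alone, and its members are not taken as independent.

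All 20 leading entries were called higher with MDI in both cultures, with ratios of 3.87 to 16.2 (median 10.3) in SVSC and 5.34 to 14.9 (median 10.5) in IVSC. Their SVSC MDI over IVSC MDI ratios lay between 0.457 and 0.700, with 1 called lower, and their SVSC over IVSC ratios between 0.373 and 0.839, with none called. The counts that placed these entries first were high mainly in IVSC MDI, so their order and these ratios are not separate evidence. In the plot of the leading entries, the 4 libraries did not change places from entry 3 to entry 20.

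**Figure D3:**
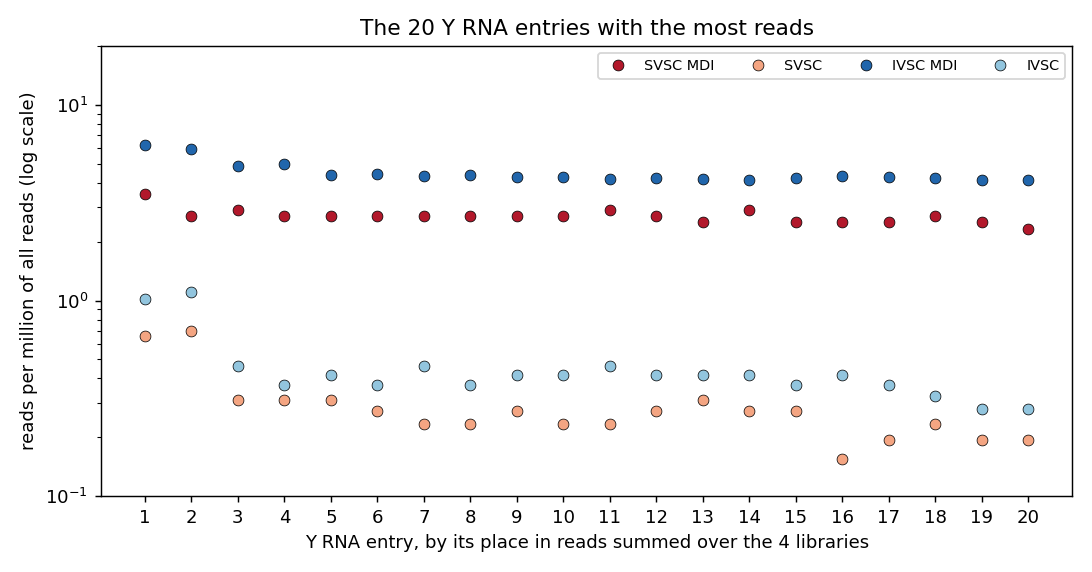
Level in RPM of all reads (log axis) of the 20 Y RNA entries with the most reads, numbered by their place in the summed reads, with 1 point per library and no error shown. At every entry IVSC MDI is highest and SVSC MDI next, and entries 3 to 20 lie nearly level within each library.

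Over all Y RNA entries with 10 reads or more in a pair of libraries, the calls with MDI went one way. For SVSC MDI over SVSC, 45 of 66 entries were called higher (68.2%) and 0 lower, against 10.6% higher and 19.9% lower among 2465 Rfam entries. For IVSC MDI over IVSC, 103 of 136 were called higher (75.7%) and 0 lower, against 16.3% and 19.6% among 2942. These shares come from the contrast that drew attention to the family, and entries share reads, so they describe how widely the difference was spread and nothing more.

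Few entries were called between tissues. For SVSC over IVSC, 0 of 86 Y RNA entries were called higher and 2 lower (2.33%), against 11.9% and 10% among 3181 Rfam entries. For SVSC MDI over IVSC MDI, 9 of 150 were called higher (6.00%) and 3 lower (2.00%), against 5.62% and 13.4% among 2081. The share called higher in the MDI pair was thus near that of all Rfam entries.

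Entry 23, of 96 bases, led in SVSC MDI and was picked out after its values were seen. It had 44 reads in SVSC MDI, 0 in SVSC, 29 in IVSC MDI and 2 in IVSC. Against a floor of 3 reads in SVSC, it was at least 73.0-fold higher in SVSC MDI, and the counting interval with those 3 reads was 23.4 to 368. The IVSC MDI over IVSC ratio was 15.1 (3.82 to 131). Only 2 of the 44 reads in SVSC MDI and 4 of the 29 in IVSC MDI were unique to this entry. On unique reads it was called in neither culture, at 3.32 (0.277 to 29.0) in SVSC and 1.39 (0.235 to 9.48) in IVSC.

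Unique reads tell entries apart. Of the 899 entries, 102 had a unique read in some library and 6 had one in all 4. Those with a unique read numbered 40 in SVSC MDI, 25 in SVSC, 63 in IVSC MDI and 24 in IVSC. The 21 entries with 5 or more unique reads in a library, a set made after the values were seen, held 84.0% of the unique reads in SVSC MDI, 66.7% in SVSC, 80.8% in IVSC MDI and 49.2% in IVSC. Each of the 21 reached 5 unique reads in an MDI library, so a larger share in the MDI libraries follows from how the set was made.

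Different entries led in the MDI libraries of the 2 cultures. In IVSC MDI, entry 25 (112 bases) led with 63 unique reads, against 8 in SVSC MDI, 0 in SVSC and 0 in IVSC. Entry 26 (107 bases) had 10 unique reads in SVSC MDI, 5 in SVSC, 47 in IVSC MDI and 8 in IVSC. Entry 24 (93 bases) had 1 unique read in SVSC MDI, 5 in SVSC, 36 in IVSC MDI and 1 in IVSC. Entry 24 was thus high in IVSC MDI and not in SVSC MDI, with an IVSC MDI over IVSC ratio of 37.5 (6.31 to 1521) and an SVSC MDI over SVSC ratio of 0.996 (0.0211 to 8.90).

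In SVSC MDI, entry 98 (68 bases) led with 29 unique reads, against 2 in SVSC, 1 in IVSC MDI and 0 in IVSC. Entry 108 (110 bases) had 21 unique reads in SVSC MDI, 0 in SVSC, 7 in IVSC MDI and 0 in IVSC. Entry 151 (98 bases) had 11 unique reads in SVSC MDI and 0 in each of the other libraries. Entry 98 was 72.2-fold higher in SVSC MDI than in SVSC (18.3 to 624) and 116-fold higher than in IVSC MDI (19.3 to 4755), ratios that rest on 2 reads and 1 read below the line.

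Not every entry with unique reads was higher with MDI in both cultures. Entry 33 (84 bases) had 9 unique reads in SVSC MDI, 11 in SVSC, 16 in IVSC MDI and 14 in IVSC. The level in RPM was 4.07-fold higher in SVSC MDI than in SVSC (1.49 to 10.8), and IVSC MDI over IVSC was 1.19 (0.544 to 2.63).

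The ratio of unique reads did not rest on the leading entries alone. Without entries 98 and 108, SVSC MDI had 113 unique reads and SVSC 58, a ratio of 9.70 (7.01 to 13.6). Without entries 25 and 26, IVSC MDI had 244 and IVSC 51, a ratio of 4.98 (3.67 to 6.87). Both ratios were lower than with all entries and still called higher.

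**Figure D4:**
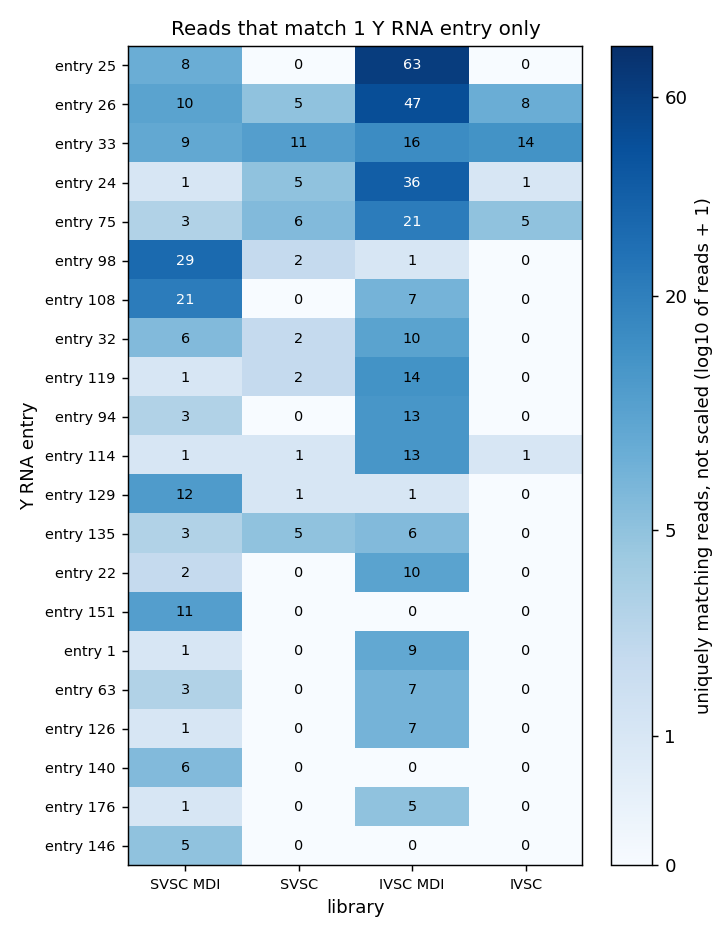
Uniquely matching reads, printed in each cell and not scaled to depth, of the 21 Y RNA entries with 5 or more such reads in a library, with shading on a log10 scale of reads + 1. Entries 25, 26 and 24 are the darkest in IVSC MDI, entries 98 and 108 in SVSC MDI, and entry 33 is similar in all 4 libraries, with 9, 11, 16 and 14 reads in SVSC MDI, SVSC, IVSC MDI and IVSC.

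Among other RNAs made by RNA polymerase III, 8 of 12 families on the list were found, and 3 were at 10 RPM or more in each pair of MDI and undifferentiated libraries. Of these 3, 1 was called higher and 1 lower with MDI in each culture. 7SK, which holds the elongation factor P-TEFb inactive, had 98.3 RPM in SVSC MDI, 4.12 in SVSC, 52.1 in IVSC MDI and 5.28 in IVSC. It was 23.9-fold higher with MDI in SVSC (19.3 to 29.7) and 9.86-fold higher in IVSC (8.13 to 12.1). By unique reads the 7SK ratios were 6.70 (4.71 to 9.58) and 10.5 (8.33 to 13.3) in the same order.

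5S_rRNA and tRNA were not called higher with MDI in either culture. 5S_rRNA, a part of the large ribosomal subunit, had 51.5 RPM in SVSC MDI, 54.1 in SVSC, 28.1 in IVSC MDI and 88.8 in IVSC, and its ratio was 0.951 in SVSC and 0.316, called lower, in IVSC. Under the other totals the 5S_rRNA ratio in SVSC was 1.30 to 1.75, and in IVSC it was 0.289 to 0.391 and still called lower. The tRNA family had 3963 in SVSC MDI, 8190 in SVSC, 5348 in IVSC MDI and 7077 in IVSC, and its ratio was 0.484, called lower, in SVSC and 0.756 in IVSC. The SVSC call of tRNA was lost under all 4 other totals, with ratios of 0.663 to 0.889. SRP_euk_arch, the family of the signal recognition particle RNA that was added after the files were seen, had 109 in SVSC MDI, 85.6 in SVSC, 88.7 in IVSC MDI and 101 in IVSC. A higher level with MDI was thus shared by 7SK and not by 5S_rRNA in IVSC.

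Families of the list under 10 RPM were sparse. U6, a spliceosomal RNA, had 20 reads in SVSC MDI, 64 in SVSC, 123 in IVSC MDI and 41 in IVSC. Vault RNA, part of the vault particle, had 14 in SVSC MDI, 82 in SVSC, 105 in IVSC MDI and 83 in IVSC. RNase_MRP, which acts on the ribosomal RNA precursor, had 15 in SVSC MDI, 5 in SVSC, 26 in IVSC MDI and 0 in IVSC. RNase_MRP was 14.9-fold higher with MDI in SVSC (5.16 to 52.5). Against the floor of 3 reads it was at least 9.02-fold higher in IVSC, and the counting interval with those 3 reads was 2.77 to 46.6. The sparse reads of RNase_MRP thus went the way of Y RNA. Its unique reads were too few to tell, at 2 in SVSC MDI, 3 in SVSC, 2 in IVSC MDI and 0 in IVSC. U6atac, also on the list, went the other way, with 1 read in SVSC MDI, 40 in SVSC, 10 in IVSC MDI and 27 in IVSC. The U6atac ratio was 0.124 (0.00308 to 0.735) in SVSC and 0.386 (0.167 to 0.822) in IVSC. Its SVSC interval included 1 under the other totals, and its IVSC interval under Rfam reads outside miRNA families. The U6 ratio was 1.56 (0.892 to 2.61) in SVSC and 3.12 (2.18 to 4.56) in IVSC. Under the other totals the U6 ratio in SVSC was 2.13 to 2.86 and called higher. By unique reads U6 was called in neither culture, at 1.72 (0.747 to 3.62) in SVSC and 1.89 (0.865 to 4.37) in IVSC. The Vault ratio was 0.850 in SVSC, but 1.16 to 1.56 under the other totals, and 1.32 in IVSC.

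None of the tRNA and ribosomal RNA families compared from the list of fragment classes, which holds no small nucleolar RNAs, was called higher with MDI. Of 7 families in that list 5 were found and 4 compared, with 0 called higher and 1, the tRNA call above, lower in SVSC, and 0 higher and 2 lower in IVSC. SSU_rRNA_5, from the small ribosomal subunit, had 740 RPM in SVSC MDI, 1277 in SVSC, 1080 in IVSC MDI and 1416 in IVSC. 5_8S_rRNA had 7.55 in SVSC MDI, 14.6 in SVSC, 4.44 in IVSC MDI and 22.1 in IVSC. PK-G12rRNA had only 5 reads in SVSC MDI, 31 in SVSC, 17 in IVSC MDI and 33 in IVSC. Ribosomal families together took 0.0800% of all reads in SVSC MDI, 0.135% in SVSC, 0.111% in IVSC MDI and 0.153% in IVSC. Among the spliceosomal RNAs of RNA polymerase II, all 7 were found and U2 alone was compared, with 30.0 RPM in SVSC MDI, 85.8 in SVSC, 101 in IVSC MDI and 116 in IVSC.

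**Figure D5:**
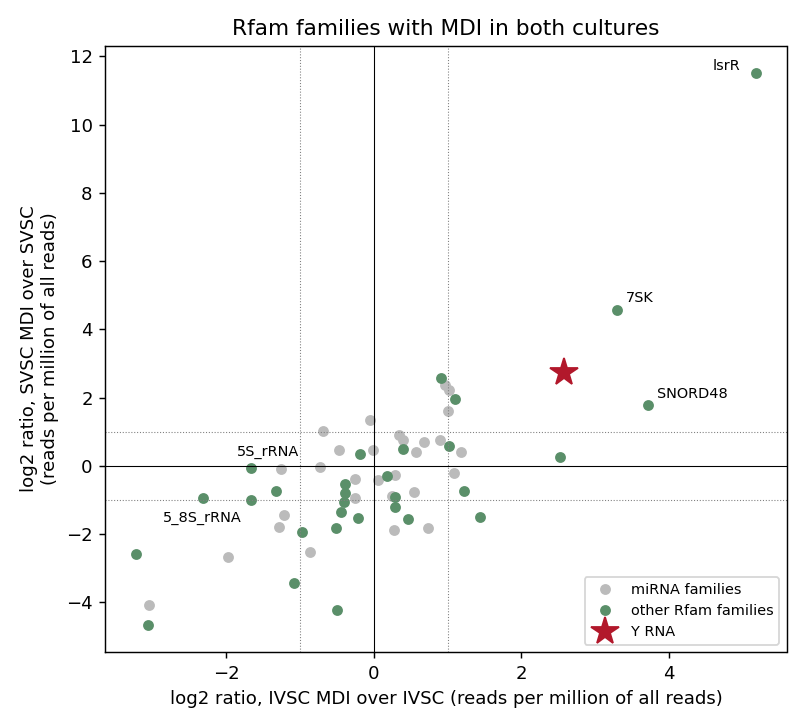
Log2 ratio with MDI in SVSC (vertical axis) against that in IVSC (horizontal axis) for Rfam families at 10 RPM or more, with dotted lines at a 2-fold difference, miRNA families in grey, other families in green and Y RNA as a star. Y RNA lies in the upper right, at 6.70-fold in SVSC and 6.00-fold in IVSC, near 7SK at 23.9-fold and 9.86-fold.

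Of 60 families at 10 RPM or more in some library, 18 had a ratio above 1 with MDI in both cultures and 24 a ratio below 1 in both. Of the 52 families compared in both pairs, 5 were called higher in both: Y_RNA, 7SK, SNORD53_SNORD92, mir-27 and lsrR. The lsrR ratios rest on very low levels without MDI. Its level was 112 RPM in SVSC MDI, 0.0389 in SVSC, 13.4 in IVSC MDI and 0.371 in IVSC. The IVSC ratios of SNORD53_SNORD92 (2.14) and mir-27 (2.02) were close to the 2-fold limit and fell below it when scaled to hairpin reads, at 1.95 and 1.84. By unique reads SNORD53_SNORD92 was 1.58 (0.572 to 3.84) in SVSC and 1.00 (0.562 to 1.78) in IVSC, and mir-27 was 2.53 in SVSC and 1.34 in IVSC. The 5 families whose pattern over the 4 libraries was most like that of Y RNA were taken by the Euclidean distance of centred log2 levels, among 26 families with 100 reads or more in every library. SNORD53_SNORD92, a box C/D small nucleolar RNA family, was nearest at a distance of 1.31, with 32.1 RPM in SVSC MDI, 8.28 in SVSC, 22.0 in IVSC MDI and 10.3 in IVSC. The miRNA family mir-27 followed at 1.42, with 532 in SVSC MDI, 175 in SVSC, 453 in IVSC MDI and 225 in IVSC. 7SK was at 1.56, mir-92 at 2.05 and SNORD30 at 2.07. Only 4 libraries enter each distance, so the order describes these libraries.

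Marker miRNAs of other cells and of serum were looked at because Y RNA fragments are known from blood. Of 12 marker miRNAs 9 were listed, and miR-144, miR-223 and miR-150 were not. The red blood cell miRNAs miR-451 and miR-486 summed to 3.10 RPM in SVSC MDI, 3.77 in SVSC, 6.36 in IVSC MDI and 7.09 in IVSC. The white blood cell miRNA miR-142 had 9.68 in SVSC MDI, 3.77 in SVSC, 18.5 in IVSC MDI and 17.4 in IVSC. In RPM of all reads, miR-142 alone of the blood cell sums was higher in SVSC MDI than in SVSC. The shift given above for the other totals would turn the red blood cell sum higher in SVSC MDI too. The part of miR-142 in the Y RNA difference was not tested. In IVSC MDI and IVSC the blood cell sums were close to each other.

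The endothelial miR-126 had 31.7 RPM in SVSC MDI, 36.7 in SVSC, 64.0 in IVSC MDI and 82.3 in IVSC, and the liver and serum miR-122 had 0.968, 16.8, 2.22 and 6.44 in that order. The skeletal muscle miRNAs summed to 437 in SVSC MDI, 1285 in SVSC, 802 in IVSC MDI and 3844 in IVSC, with miR-206 at 0.774, 1.94, 99.7 and 2991. The muscle-specific miR-206 was thus high in the muscle cultures and nearly absent from the fat cultures. The other muscle miRNAs did not all follow the tissue labels: miR-1 had 329 in SVSC MDI, 1267 in SVSC, 630 in IVSC MDI and 762 in IVSC. miR-133a had 98.9 in SVSC MDI, 15.1 in SVSC, 61.0 in IVSC MDI and 48.0 in IVSC, and miR-133b had 8.13, 0.933, 11.8 and 42.2 in that order. Thus miR-1 was higher in SVSC than in IVSC, and miR-133a higher in SVSC MDI than in IVSC MDI. All 9 markers together gave 482 in SVSC MDI, 1346 in SVSC, 893 in IVSC MDI and 3957 in IVSC. The summed muscle markers were lower with MDI in both cultures, mainly through miR-1 in SVSC and through miR-206 in IVSC. In contrast, miR-133a was higher with MDI in both cultures and miR-133b in SVSC. The part of these markers in the Y RNA difference was not tested.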

How the data were processed

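The deposited values are read counts per feature for 4 libraries, and per the file headers the features come from 4 resources: Rfam, piRNAs, pig miRNA hairpins and the Sscrofa9.61 non-coding RNAs of Ensembl. The submitters' processing notes name the build mm9 without its use. The aligner is not given in the sources used, nor is the trimming. In 1 file, 3 tRNA entries had no total and their expression value was used, and 1 feature without a name was left out. Rfam entries do not state a species in these files, and Ensembl transcripts carry no names, so Y RNA among them was not analysed here. Members and lists were chosen with earlier results of these data known. Named entries were the 10 with the most reads over the libraries and further entries at 1% or more of a library, at most 20 in all. Named families were those of the lists with 10 reads or more in a library. Counts were scaled to RPM, per 1000000 of all reads. Families were compared at 10 RPM or more in 1 library of a pair, and entries at 10 reads over the pair. A count of 0 was set to 3 reads for ratios. Depth limits precision most in SVSC MDI, where 3 reads are 0.581 RPM, against 0.117 in SVSC, 0.145 in IVSC MDI and 0.139 in IVSC. The additive fit over both cultures was not run. Python 3.11.15, pandas 2.3.3, NumPy 2.4.6, SciPy 1.17.1 and matplotlib 3.10.9 were used, and the interval code was tested on simulated data.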

Additional observations from a re-analysis of the deposited data

Results flagged for a closer look

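The signal recognition particle RNA family SRP_euk_arch went in opposite directions with MDI, with a ratio of 1.28 (1.16 to 1.40) in SVSC and 0.879 (0.825 to 0.935) in IVSC, neither of them 2-fold. The difference was not tested, with 1 library per group. By uniquely matching reads the ratios were 0.772 in SVSC and 0.859 in IVSC, both below 1. Scaled to Rfam reads both were above 1, at 1.76 in SVSC and 1.04 in IVSC, and scaled to Rfam reads outside miRNA families they were 2.34 and 1.08.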

How the results depend on the processing

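The call that Y RNA was higher with MDI held in both cultures under every alternative run, with ratios of 5.27 to 13.5 in SVSC and 5.47 to 7.41 in IVSC. Alternatives on distinct reads, unique reads, Rfam reads outside miRNA families and entry choices for levels were chosen after seeing the data. Scaled to Rfam reads the ratios were 9.22 (SVSC MDI over SVSC), 7.08 (IVSC MDI over IVSC), 0.830 (SVSC over IVSC) and 1.08 (SVSC MDI over IVSC MDI), and the SVSC ratio over the IVSC ratio was 1.30. Scaled to hairpin reads they were 9.17 with MDI in SVSC, 5.47 with MDI in IVSC and 1.10 between the MDI libraries, with 1.68 for the SVSC ratio over the IVSC ratio. Without the Ensembl resource the values were 9.18 for SVSC MDI over SVSC, 1.10 between the MDI libraries and 1.63. Scaled to Rfam reads outside miRNA families they were 12.3 in SVSC, 7.41 in IVSC, 1.07 between the MDI libraries and 1.66. Entry 1 alone gave 5.27 in SVSC, 0.556 between the MDI libraries and 0.857, with levels of 3.48, 0.661, 6.27 and 1.02 RPM in SVSC MDI, SVSC, IVSC MDI and IVSC. The 163 entries with 10 reads or more summed over all libraries gave levels of 169, 25.3, 229 and 37.0 in that order. The fewest distinct reads gave 13.1 in SVSC, 0.789 for SVSC over IVSC, 1.73 between the MDI libraries and 2.20, with levels of 39.7, 3.03, 22.9 and 3.84. Unique reads gave 13.5, 0.853, 1.85 and 2.17 for the same ratios, with levels of 31.5, 2.33, 17.1 and 2.73. Entries with 10 reads or more within the library itself numbered 30, 3, 131 and 13, and drawing IVSC MDI down left 195 entries with a read. With no minimum level, families called higher and lower numbered 77 and 34 for SVSC MDI over SVSC, 47 and 25 for IVSC MDI over IVSC, 30 and 24 for SVSC over IVSC, and 24 and 30 for SVSC MDI over IVSC MDI. Scaled to Rfam reads, 14 were higher for SVSC MDI over SVSC, and 11 higher and 8 lower for SVSC MDI over IVSC MDI. Of the values for single entries and families, 342 moved by less than their counting interval and 74 by more. The cause of these shifts was not tested beyond the change of total or of reads counted. A fit with culture as the block over both pairs was not run, since the family was selected on this contrast. No library was left out, because each group has 1.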
